A study of Mus musculus with 6 samples.

Results

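The NF-kB system was followed through 10 genes, chosen by symbol: the 5 subunit genes Rel, Rela, Relb, Nfkb1 and Nfkb2, the 3 classical inhibitor genes Nfkbia, Nfkbib and Nfkbie, and Nfkbiz and Bcl3, which encode nuclear relatives of the inhibitors. Each had a single row in both deposited tables, among 16799 genes found in both. RNA came from BaF3, a mouse line that depends on interleukin-3 and is labelled as a pro-B and leukaemia line. All cells were kept in 2 ng/mL interleukin-3 with 10% serum, were nucleofected, and were sorted 24 h later. The con group carried pmax-Clover, a plasmid for the fluorescent protein Clover alone. The ICN group carried pmax-Clover-ICN, which adds ICN, the usual name for the intracellular part of a Notch receptor, here NOTCH1 by the series' text. The CTdel group carried pmax-Clover-CTdel, which that text calls a mutated ICN. The meaning of CTdel, the promoter of the plasmids, the species of the inserted sequence and the gate of the sort were not given in the sources used here. Each group had 2 libraries, 1 in each table, and whether they were separate cultures is not stated in the labels. The p-values therefore cover only the differences among these libraries.

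NF-kB proteins act as dimers that bind DNA and switch on genes of inflammation, survival and lymphocyte activation. In resting cells the inhibitor proteins hold most dimers in the cytoplasm. A kinase complex marks the inhibitors for destruction, the freed dimers enter the nucleus, and among the genes they switch on are those of the inhibitors themselves, which closes a feedback loop. Nfkb1 and Nfkb2 encode long precursors that are cut to DNA-binding subunits and that, uncut, also restrain the other subunits.

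Values are FPKM, in which the length of a gene's transcript and the size of its library are divided out, so levels of different genes can be set side by side. No read totals are known. The lowest values of small RNA genes put each library at 0.963 to 1.08 times the depth of con replicate 1. This is a rough estimate, which takes the lowest value to stand for the same number of reads in each library. Outside con replicate 1, only 11 to 14 of 25 lengths lay within 2% of a library's median ratio. Where values of a group are given in pairs, replicate 1 comes first. Notch1 had 0.89 and 1.72 in con, 190 and 888 in ICN and 84.9 and 25.4 in CTdel. It was thus high in each library labelled for a Notch1 plasmid. Whether these reads came from the plasmid was not tested. The inserted sequences are not known, so the levels in ICN and CTdel may not be comparable. Of 10 pro-B markers 9 were in both tables, and only Cd79b reached FPKM 1 in all 6 libraries, while Ebf1, Rag1 and Rag2 stayed at or below 0.08. The pro-B markers summed to 3.87 to 5.51 in con, 7.27 to 8.16 in ICN and 9.42 to 17.6 in CTdel. Cd79b made up most of each sum, with 3.62 and 4.32 in con, 6.36 and 4.34 in ICN and 8.3 and 13.4 in CTdel. Cd79a had 0 and 0.79, 1.35 and 2.08, and 0.84 and 3.15, in the same order. The 3 interleukin-3 receptor genes summed to 304 to 553. Of 7 macrophage markers 6 were in both tables, with Mrc1 at or below 0.1 in each library. They summed to 41.2 to 71.2 in con, 34.9 to 89.2 in ICN and 70.9 to 98.1 in CTdel. Adgre1 made up most of each sum, with 60.8 and 33.2 in con, 57.4 and 21.5 in ICN and 61.8 and 52.0 in CTdel. In the same order, Cd68 had 8.32 and 4.46, 21.6 and 11.9, and 23.0 and 14.0. Csf1r had 0.05 and 0.01, 3.34 and 0.1, and 7.96 and 1.72. Itgam had 0.28 and 0.25, 1.8 and 0.46, and 1.9 and 1.77. These 3 were lowest in con without overlap, whereas Lyz2 overlapped (1.72 and 3.3, 5.08 and 0.88, 3.43 and 1.21). Of 6 dendritic markers 5 were in both tables. They summed to 0.3 to 0.38, 4.18 to 6.53 and 22.8 to 33.6, and in CTdel Itgax accounted for 32.5 and 22.5 of that. Of 8 mast cell and basophil markers 3 were in both tables, and they summed to 199 to 265 in con, 87.8 to 117 in ICN and 64.5 to 86.8 in CTdel. Gata2 made up most of each sum, with 238 and 192 in con, 104 and 78.0 in ICN and 74.7 and 61.8 in CTdel. In the same order, Cpa3 had 26.7 and 6.14, 10.1 and 2.34, and 4.56 and 1.64. Hdc went the other way, with 0.53 and 0.39, 2.92 and 7.45, and 7.48 and 1.13. Of 7 T cell markers 6 were in both tables, none of them at FPKM 1 in all libraries. The part of these markers in the results on NF-kB genes was not tested. In such bulk RNA, more cells with a transcript and more transcript per cell cannot be told apart.

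In con cells the subunits were the more abundant side of the system. Nfkb1 had the highest mean, at 55.4 ± 9.69 FPKM, followed by Rela at 47.2 ± 2.88 and Nfkb2 at 40.1 ± 17.6 (SD, n = 2). These 3 genes overlapped between their libraries and could not be ordered. Nfkbib at 23.6 ± 1.70 and Nfkbia at 23.4 ± 17.6 came next and overlapped too. Relb had 10.4 ± 7.44, Nfkbie 6.15 ± 0.735, Nfkbiz 3.56 ± 2.69 and Rel 3.2 ± 1.19. Relb overlapped with Nfkbia above it and with Nfkbie below it, and Nfkbiz overlapped with Rel. Bcl3 was listed at 0 and 0.03, and was the only gene of the 10 under FPKM 1 in any library. The 9 others were at or above 1 in all 6 libraries and were tested. None of them therefore entered the test only through a group in which it was high.

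Against con, 2 of the 9 tested genes rose in CTdel, and both were inhibitors: Nfkbie and Nfkbia. Of all 11050 tested genes, 1.41% changed in that comparison: 1.3% rose and 0.109% fell. In ICN 0 of the 9 passed limma's test at an adjusted p under 0.05, where 0.0362% of all tested genes did, although 7 of the 9 had an unadjusted p under 0.05, as did 1663 of all 11050. With both forms set against con together, Nfkbie and Nfkbia rose, against 1.11% of all tested genes (1.01% rose and 0.0995% fell). These comparisons share the con libraries. The last also holds the ICN and CTdel libraries of the others, so it is not a separate finding. In both tables at once, 8 of the 9 genes stood above con in ICN and 8 of 9 in CTdel, against 29.8% and 26.2% of all tested genes, and the same 8 did so in all 4 libraries (17.7%). Both ICN libraries lay above both con libraries for 8 of 9 genes (22.7% of all tested genes), and both CTdel libraries did for 7 of 9 (18.3%). All 4 libraries lay above both con libraries for 7 of 9 genes (12% of all tested genes). The median log2 change of the 9 genes was 1.45 in ICN and 1.10 in CTdel, beside 0.0014 and −0.06 over all tested genes. All changes were taken on log2(FPKM + 1), a scale that makes those of low genes look smaller.

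**Figure D1:**
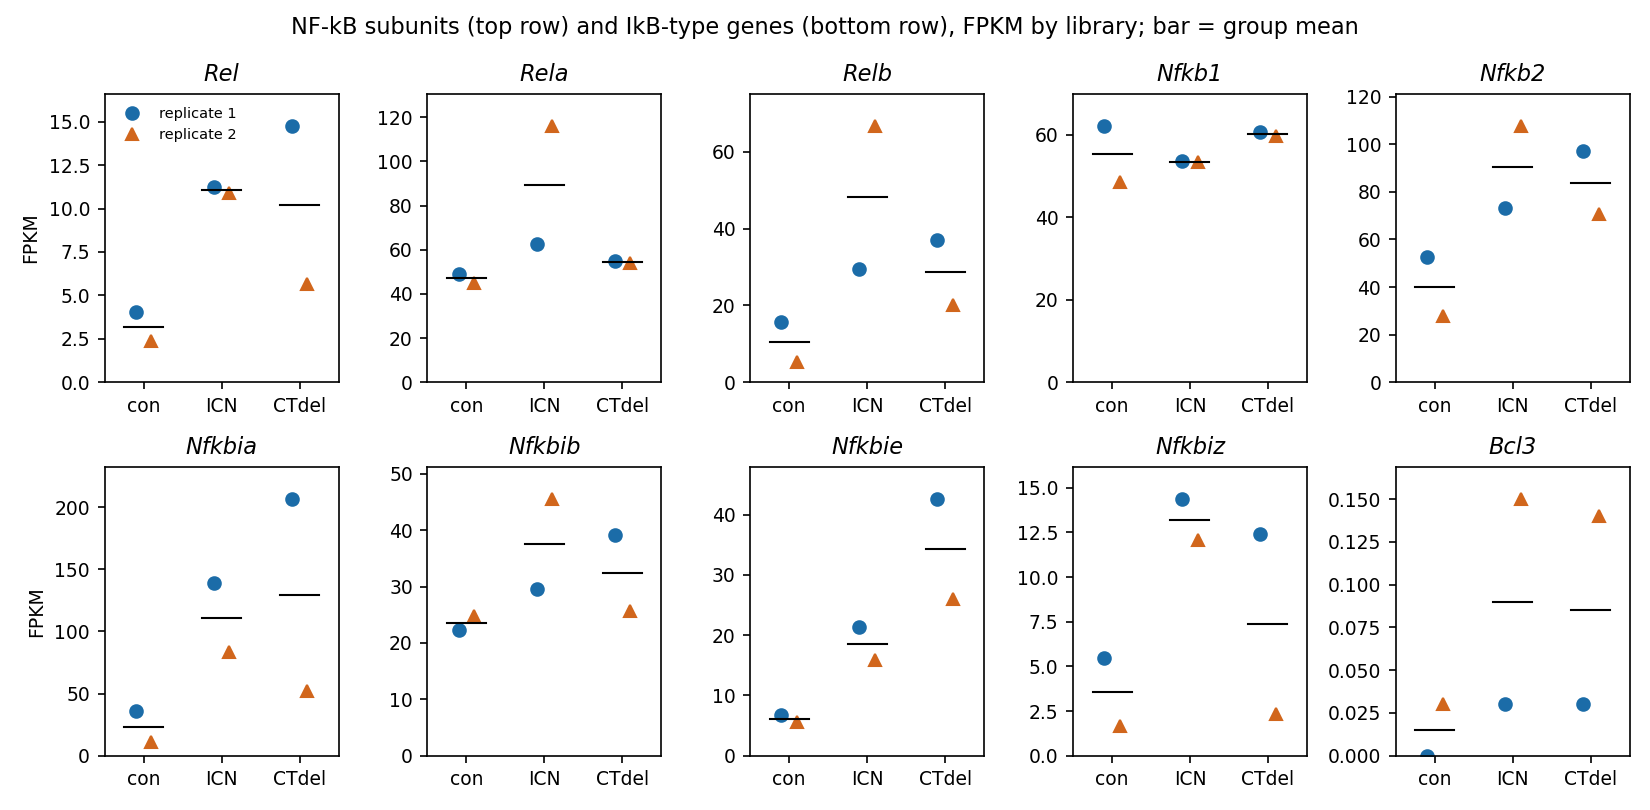
FPKM (vertical axis, linear, from 0) of each of the 10 genes in con, ICN and CTdel, with a circle for replicate 1, a triangle for replicate 2 and a bar for the mean of the group. Nfkbie reached 6.67 in con, 21.4 in ICN and 42.6 in CTdel, while Nfkb1 stayed between 48.5 and 62.2 in all 6 libraries.

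Promoters were searched for the letters that NF-kB is known to bind, since several of these genes stood higher together. RefSeq promoters of GRCm38.p6, the assembly behind mm10, covered 7 of the 10 genes with 9 start sites, and the 250 bases before each start were read on both strands. The kappaB consensus was found before 6 of those 9 starts, in 4 genes (Nfkbia, Nfkbie, Nfkb2 and Rel), and before 3.9% of all 32851 starts. A looser form, GGNNTTTCC, was found in 4 of the 7 genes (Nfkbia, Nfkb2, Rel and Bcl3) and before 4.93% of all starts; in Nfkbia, Nfkb2 and Rel at least 1 of its matches overlaps one of the consensus. Nfkbib and Rela had neither, and Relb, Nfkb1 and Nfkbiz were not matched in the promoter table. GTGGGAA, the core that the Notch partner Rbpj binds, was found before 5.42% of all starts and in 0 of the 7 genes. A match is a description of the letters only.

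The whole windows are shown for the 2 genes that passed the test in CTdel. Capitals mark matches of the kappaB consensus or of GGNNTTTCC, and each line runs 5′ to 3′ towards the start. Nfkbia lies on the minus strand of chromosome 12 (Gene ID 18035, 55489409 to 55492647 in GRCm38), with its window at chr12:55492648-55492897. Nfkbie lies on the plus strand of chromosome 17 (Gene ID 18037, 45555700 to 45563169), with its window at chr17:45555450-45555699.
Nfkbia: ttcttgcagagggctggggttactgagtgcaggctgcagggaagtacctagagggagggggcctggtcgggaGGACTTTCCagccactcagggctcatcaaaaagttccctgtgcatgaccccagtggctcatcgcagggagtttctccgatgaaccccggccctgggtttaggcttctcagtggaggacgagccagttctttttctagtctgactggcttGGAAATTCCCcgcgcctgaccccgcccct
Nfkbie: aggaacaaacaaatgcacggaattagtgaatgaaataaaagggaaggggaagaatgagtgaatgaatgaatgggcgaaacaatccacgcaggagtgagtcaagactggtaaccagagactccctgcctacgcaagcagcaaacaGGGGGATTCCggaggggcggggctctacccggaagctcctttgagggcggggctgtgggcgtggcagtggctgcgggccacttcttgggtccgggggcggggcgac
The consensus match of Nfkbia lies 29 to 20 bases before the start and that of Nfkbie 106 to 97 bases before it.

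For Nfkb2 and Rel, 30 bases around a consensus match are shown, since annotated exons reach into their windows. Nfkb2 has a match 39 to 29 bases before the first of its 3 starts (chr19:46304688-46304717, plus strand) and another 11 to 2 bases before it. The match of Rel lies 92 to 82 bases before its start (chr11:23771042-23771071, minus strand). In these stretches the capitals cover overlapping matches on both strands.
Nfkb2: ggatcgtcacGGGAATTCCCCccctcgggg
Rel: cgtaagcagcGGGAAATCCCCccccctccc

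Nfkbie encodes IkB-epsilon, an inhibitor that is made anew when NF-kB is active. The con libraries had FPKM 6.67 and 5.63, the ICN libraries 21.4 and 15.9 and the CTdel libraries 42.6 and 26.1. The 3 groups did not overlap: con was lowest, ICN in between and CTdel highest. It rose in CTdel by 2.27 on the log2 scale (SE 0.215, limma adjusted p = 0.02), and the log2 change in ICN was 1.45 (SE 0.215, adjusted p = 0.12). For both forms together it was 1.86 (adjusted p = 0.0272). Without CTdel replicate 1 the adjusted p in CTdel was 0.0551, and without a filter on low genes it was 0.126. For both forms together it was 0.0595 without con replicate 1, 0.0511 without con replicate 2 and 0.161 without that filter.

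Nfkbia encodes IkB-alpha, the inhibitor with the fastest turnover and the best known product of the feedback loop. Con had 35.9 and 10.98, ICN 139 and 83.1 and CTdel 206 and 52.3. All 4 libraries with a Notch1 plasmid lay above both con libraries, while ICN and CTdel overlapped. Replicate 1 was higher than replicate 2 in each group, by 3.27 times in con, 1.67 times in ICN and 3.94 times in CTdel. Within a table the fold over con was 3.87 and 7.57 in ICN and 5.75 and 4.77 in CTdel. Nfkbia rose in CTdel by 2.32 (SE 0.324, limma adjusted p = 0.0384) and for both forms together by 2.34 (adjusted p = 0.0336), and its log2 change in ICN was 2.37 (SE 0.324, adjusted p = 0.113). The call in CTdel was lost with no term for the table (0.266), with quantile normalization (0.058), without a filter on low genes (0.213), without con replicate 1 (0.0672) or 2 (0.0965) and without CTdel replicate 1 (0.131). That for both forms was lost with the table left out (0.17), without that filter (0.185) and without con replicate 1 (0.0595) or 2 (0.0916).

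Nfkbib (Gene ID 18036, chromosome 7, 28758251 to 28766644 in GRCm38) encodes IkB-beta, a more slowly degraded inhibitor. Con had 22.3 and 24.8, ICN 29.6 and 45.5 and CTdel 39.2 and 25.7. Both forms lay above con, but CTdel replicate 2 did so by only 1.04 times within its table. The log2 change was 0.62 in ICN and 0.42 in CTdel (limma adjusted p = 0.398 and 0.706), and neither passed.

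Nfkbiz (Gene ID 80859, chromosome 16, 55811375 to 55838954 in GRCm38) encodes IkB-zeta, a nuclear protein that works with NF-kB on a second set of its target genes. Con had 5.46 and 1.66, ICN 14.4 and 12.1 and CTdel 12.4 and 2.36. The ICN libraries were the highest along with CTdel replicate 1, and CTdel replicate 2 lay within the range of con. The log2 change was 1.77 in ICN (SE 0.417, limma adjusted p = 0.19) and 0.70 in CTdel (adjusted p = 0.633). Bcl3 (Gene ID 12051, chromosome 7, 19808462 to 19822824 in GRCm38), whose product binds the small subunits made from Nfkb1 and Nfkb2, was listed at 0 and 0.03 in con, and ICN had 0.03 and 0.15 and CTdel 0.03 and 0.14. It was under FPKM 1 in each library and was not tested.

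Among the subunits, Rel (Gene ID 19696, chromosome 11, 23736847 to 23770969 in GRCm38) encodes the c-Rel protein of lymphocytes. It had 4.04 and 2.36 in con, where ICN had 11.2 and 10.9 and CTdel 14.8 and 5.63. All 4 libraries with a Notch1 plasmid lay above con. The log2 change was 1.55 in ICN (SE 0.318, limma adjusted p = 0.169), 1.31 in CTdel (adjusted p = 0.159) and 1.43 for both forms together (adjusted p = 0.09). Rel thus had the smallest p of the subunits in each comparison with con, and did not pass.

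Relb (Gene ID 19698, chromosome 7, 19606217 to 19629438 in GRCm38) and Nfkb2 (Gene ID 18034, chromosome 19, 46300994 to 46312400 in GRCm38) encode the partners of the slower, non-canonical branch of NF-kB. For Relb con had 15.7 and 5.17, ICN 29.4 and 66.8 and CTdel 37.1 and 20.1. For Nfkb2 con had 52.6 and 27.7, ICN 73.4 and 108 and CTdel 97.1 and 70.7. For both genes con was lowest without overlap, ICN replicate 2 was the highest library and con replicate 2 the lowest. The fold of Relb over con in ICN was 1.87 in replicate 1 and 12.9 in replicate 2. The log2 changes of Relb were 2.16 in ICN and 1.48 in CTdel (SE 0.595, limma adjusted p = 0.235 and 0.418). Those of Nfkb2 were 1.20 and 1.10 (SE 0.362, adjusted p = 0.255 and 0.3).

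Rela (Gene ID 19697, chromosome 19, 5637442 to 5648134 in GRCm38) and Nfkb1 (Gene ID 18033, chromosome 3, 135584655 to 135691969 in GRCm38) encode the subunits of the most common NF-kB dimer. For Rela con had 49.2 and 45.1, ICN 62.4 and 116 and CTdel 54.9 and 53.9. CTdel lay above con by 1.12 and 1.19 times within a table, and ICN replicate 2 stood apart at 2.57 times. The log2 change was 0.84 in ICN and 0.20 in CTdel (limma adjusted p = 0.302 and 0.865). For Nfkb1 con had 62.2 and 48.5, ICN 53.6 and 53.3 and CTdel 60.6 and 59.8. Both forms lay inside the range of con, and among the 9 tested genes only Nfkb1 overlapped with con in both comparisons. Its log2 change was −0.04 in ICN and 0.13 in CTdel, with 95% intervals of −0.55 to 0.47 and −0.38 to 0.64.

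**Figure D2:**
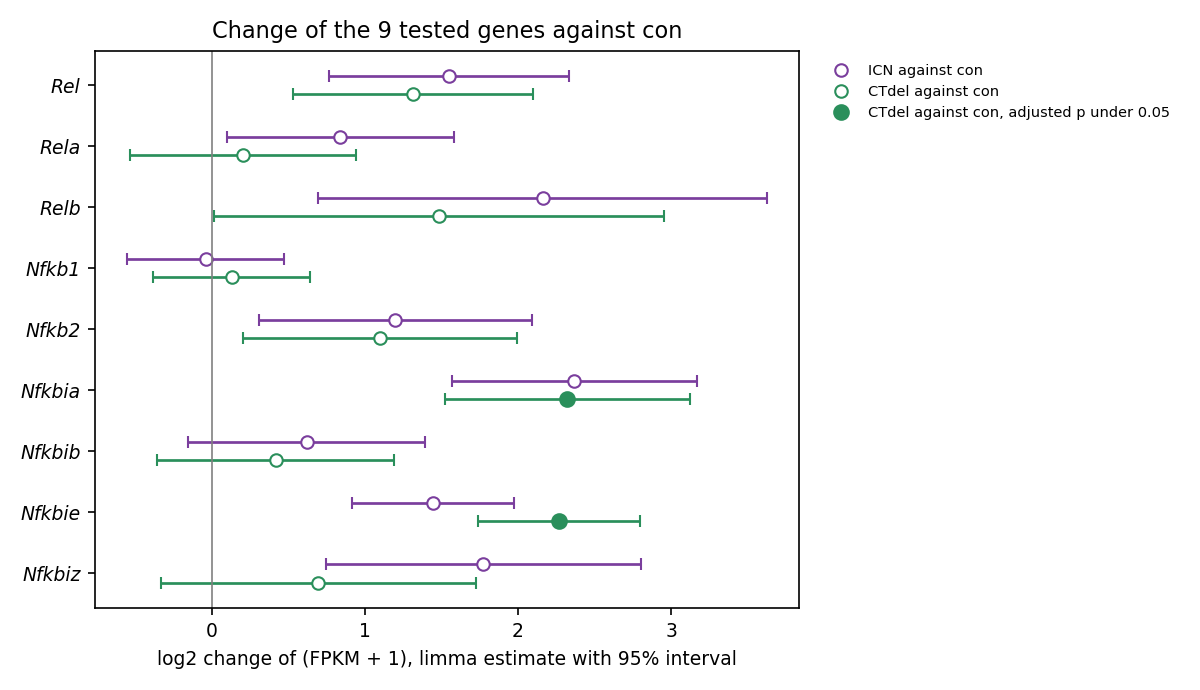
Log2 change of (FPKM + 1) against con (horizontal axis) for the 9 tested genes, as limma estimates with 95% intervals, purple for ICN and green for CTdel; a filled circle marks an adjusted p under 0.05. Filled circles are at 2.32 for Nfkbia and 2.27 for Nfkbie in CTdel, and the estimates of Nfkb1 lie beside 0.

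The ICN calls depended on which libraries were fitted. Fitted with con alone, Nfkbia and Nfkbiz rose in ICN (limma adjusted p = 0.0131 and 0.0402). Over all 11050 tested genes that fit called 162, against 4 with all 6 libraries. With each library left out in turn, the log2 change of Nfkbia in ICN ran from 1.84 to 2.90. That of Nfkbiz ran from 1.07 to 2.48 and that of Relb from 1.01 to 3.31. A group reduced to 1 library was taken to have the spread of the rest. In CTdel the count went from 2 to 5 when CTdel and con were fitted alone or either ICN library was left out, with Rel, Relb and Nfkb2 added. It was 1 (Nfkbie) without either con library and 0 without CTdel replicate 1. For both forms together it was 0 without either con library, 7 when ICN replicate 1 was left out, 5 when ICN replicate 2 was and 4 when CTdel replicate 2 was.

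Summed over the genes, inhibitor transcripts were further above con than subunit transcripts in each of the 4 libraries with a Notch1 plasmid. The 5 subunit genes summed to FPKM 184 and 129 in con, and ICN reached 230.0 and 355 and CTdel 264 and 210.2. The 3 classical inhibitor genes summed to 64.9 and 41.4 in con, and ICN reached 190 and 144 and CTdel 288 and 104. Within a table the inhibitors were 2.92 and 3.49 times con in ICN and 4.44 and 2.52 times in CTdel, while the subunits were 1.25 and 2.76 times and 1.44 and 1.63 times. The ratio of inhibitor to subunit FPKM was 0.353 and 0.321 in con, 0.826 and 0.407 in ICN and 1.09 and 0.495 in CTdel. Con was lowest without overlap, and replicate 1 was above replicate 2 in each group. These sums lean on Nfkbia, which made up 73.2% and 57.5% of inhibitor FPKM in ICN and 71.6% and 50.3% in CTdel. Gene by gene the 2 classes were not separate. In ICN replicate 2 the inhibitors Nfkbia, Nfkbie and Nfkbib were 7.57, 2.82 and 1.84 times con. There the subunits Relb, Rel, Nfkb2, Rela and Nfkb1 were 12.9, 4.61, 3.90, 2.57 and 1.10 times con. With 2 libraries a group, no permutation test of these sums could reach the threshold, and none was run.

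**Figure D3:**
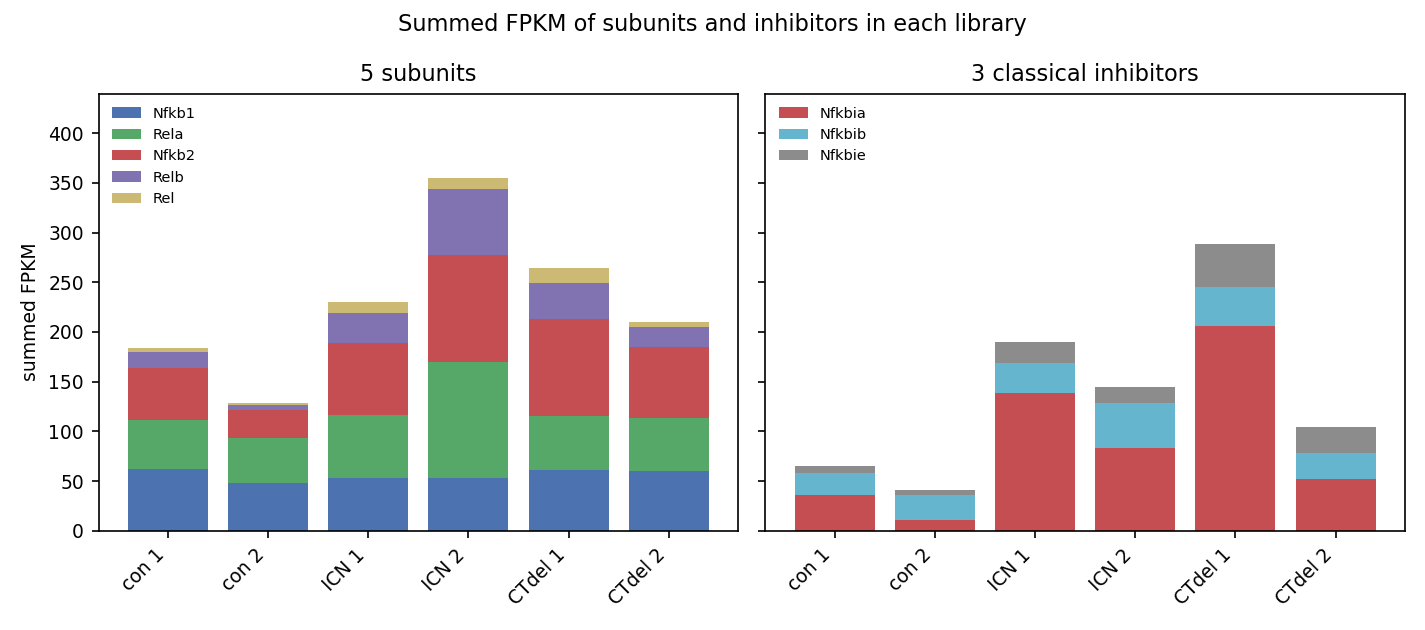
Summed FPKM (vertical axis, linear, from 0) in each library, stacked by gene, for the 5 subunits and the 3 classical inhibitors on 1 scale. Inhibitors reach 288 in CTdel replicate 1 against 64.9 in con replicate 1, and the Nfkb1 segment changes little between libraries.

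Within the sums, Nfkb1 made up 33.9% and 37.7% of subunit FPKM in con, 23.3% and 15.0% in ICN and 22.9% and 28.5% in CTdel. Relb made up 8.54% and 4.01% in con, 12.8% and 18.8% in ICN and 14.0% and 9.58% in CTdel. In both cases con did not overlap with either form. Of inhibitor FPKM, Nfkbia made up 55.3% and 26.6% in con, 73.2% and 57.5% in ICN and 71.6% and 50.3% in CTdel, so ICN lay above con and CTdel overlapped with it. Nfkbib made up 34.4% and 59.8% in con, 15.6% and 31.5% in ICN and 13.6% and 24.7% in CTdel, both forms below con without overlap. Nfkbie made up 10.3% and 13.6% in con, 11.2% and 10.99% in ICN and 14.8% and 25.02% in CTdel, with CTdel alone above the con range.

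CTdel and ICN were not told apart by the test. Between the forms 0 of the 9 genes passed limma's test, against 0.0181% of all tested genes. Nfkbie and Nfkbiz had an unadjusted p under 0.05, as had 788 of all 11050 genes. Nfkbie was 0.82 higher in CTdel (95% interval 0.29 to 1.35, adjusted p = 0.583) and Nfkbiz 1.08 lower (log2 change −1.08, interval −2.11 to −0.05, adjusted p = 0.688). For Nfkbia the log2 change was −0.04 with an interval of −0.84 to 0.76, and for Relb −0.68 with −2.15 to 0.79, so sizable differences in either direction are compatible with these libraries.

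The replicates also disagreed on direction between the forms. In replicate 1, 7 of the 9 genes were higher in CTdel than in ICN (35.9% of all tested genes), and in replicate 2 only 2 were (49.5%). Those 2 were Nfkbie and Nfkb1, which were higher in CTdel in both replicates, as were 24% of all tested genes, and in both libraries of CTdel than in either of ICN (15.6%). Rel, Relb, Nfkb2, Nfkbia and Nfkbib changed sign, Relb from 0.33 in replicate 1 to −1.68 in replicate 2. Without ICN replicate 1 the ICN group was replicate 2 alone, and the log2 changes of Rela, Relb and Nfkbiz were −1.12, −1.83 and −1.78. With each library left out in turn, these changes ran up to −0.16, 0.47 and −0.37.

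**Figure D4:**
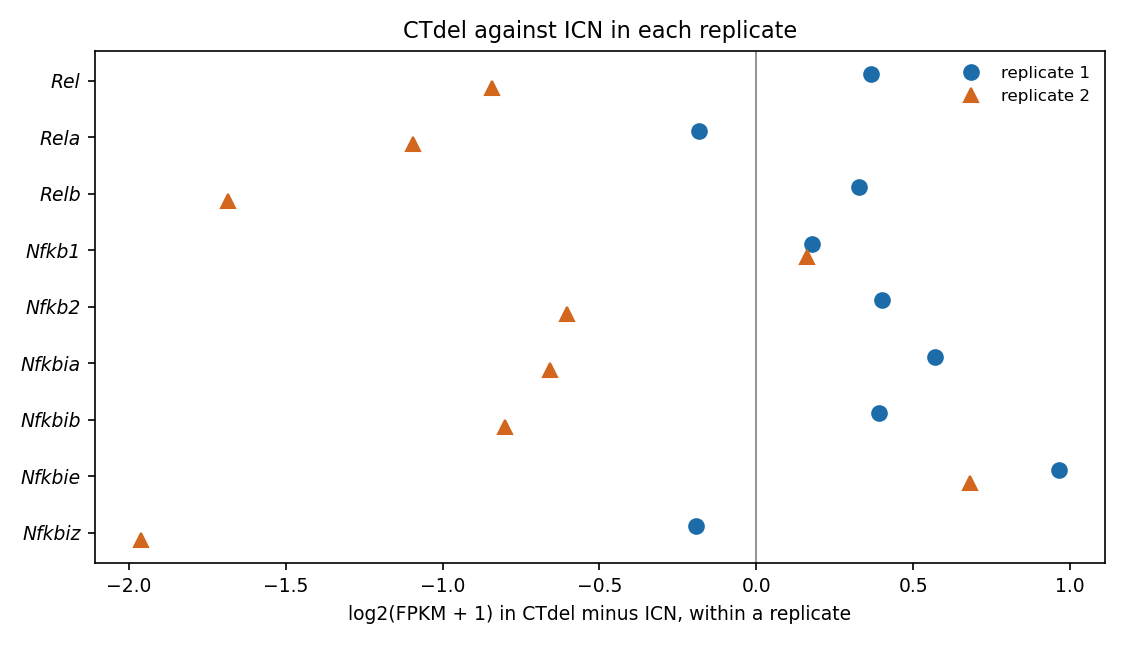
Difference of log2(FPKM + 1) between CTdel and ICN (horizontal axis) within replicate 1 (circles) and replicate 2 (triangles) for the 9 tested genes. Both marks of Nfkbie lie to the right of 0, at 0.96 and 0.68, whereas those of Relb lie on either side, at 0.33 and −1.68.

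Libraries of the same group differed for many of these genes. In con, 5 of the 9 genes were at least 1.5 times as high in replicate 1 as in replicate 2, against 18.6% of all tested genes. They were Nfkbiz (3.29 times), Nfkbia (3.27), Relb (3.04), Nfkb2 (1.90) and Rel (1.71). In CTdel all 9 genes were higher in replicate 1, where 46.3% of all tested genes were. In ICN 5 of 9 were, and Relb, Rela, Nfkb2 and Nfkbib were higher in replicate 2, Relb at 0.439 times in replicate 1.

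Interferon-response genes also differed between libraries of a group. The 12 genes of that list summed to FPKM 427 and 127 in con, and ICN reached 1336 and 3659 and CTdel 1241 and 1262. The CTdel sums were close to each other, but single genes of the list differed between the CTdel libraries in both directions. Ifit3 had 19.3 and 6.93 in CTdel, and Oasl1 had 317 and 342. By the sum, ICN replicate 2 was the highest library and con replicate 2 the lowest, as for Relb and Nfkb2. Notch1 was highest in ICN replicate 2 too. Over con, 12 of 12 had a positive change in each form (50.1% of all tested genes in ICN and 42.1% in CTdel), with a median of 3.40 in ICN and 2.35 in CTdel, and 0 of 12 passed limma's test in either, with 12 and 9 at an unadjusted p under 0.05, as had 1663 and 1302 of all 11050. For the chemokine Cxcl10 con had 2.55 and 0.76, ICN 106 and 139 and CTdel 95.9 and 14.3. For Ifit2, an antiviral protein, con had 6.91 and 7.1, ICN 39.4 and 65.5 and CTdel 24.1 and 15.8. Both genes were lowest in con, without overlap. With both forms together these 2 rose, Cxcl10 by 4.78 (limma adjusted p = 0.0336) and Ifit2 by 2.03 (adjusted p = 0.0436). Both calls were lost without either con library, with a pseudocount of 5 and without a filter on low genes, and that of Ifit2 also with quantile normalization (0.0646). The part of the interferon response and of the Notch1 level in the NF-kB results was not tested.

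Upstream of the inhibitors, 1 of 11 genes of kinases and their partner proteins rose in CTdel and 0 in ICN. Of all tested genes, 1.3% rose in CTdel and 0.0362% in ICN. Ikbke, which encodes a kinase related to the IkB kinases that is itself made in inflammation, had 5.85 and 3.52 in con, where ICN had 10.3 and 10.7 and CTdel 27.4 and 15.3. The groups did not overlap, and their order was that of Nfkbie. It rose in CTdel by 1.95 (limma adjusted p = 0.0364), and its log2 change in ICN was 1.04 (adjusted p = 0.213). The call was lost without con replicate 1 (0.0672) or 2 (0.0956), without CTdel replicate 1 (0.174) and without a filter on low genes (0.209). Map3k8, a kinase that the Nfkb1 precursor holds inactive, had 1.2 and 0.61 in con, where ICN had 5.45 and 7 and CTdel 7.28 and 3.64, with no overlap between con and either form. In ICN it was 1.93 above con on the log2 scale (limma adjusted p = 0.135), and for both forms together 1.83 (adjusted p = 0.0527).

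The list of kinases and their partners had 9 of 11 positive changes in ICN and 9 of 11 in CTdel (50.1% and 42.1% of all tested genes). Its medians were 0.42 and 0.28. In ICN, Tbk1, which phosphorylates interferon regulators, had a log2 change of 0.60 and Ikbkg, the regulatory part of the IkB kinase, one of 0.56 (limma adjusted p = 0.283 and 0.303). A list built around the ubiquitin ligase that marks the inhibitors for destruction held Btrc, Fbxw11, Cul1, Skp1a, Rbx1, Nedd8, Uba3 and Rnf123. Not all of them are parts of that ligase. The median of the list lay near that of all genes. Of these 8 genes 0 passed limma's test in either form, with 0 at an unadjusted p under 0.05. Of all tested genes 0.0362% passed in ICN and 1.41% in CTdel, and 15.05% and 11.78% had such an unadjusted p. The medians of the 8 were −0.13 in ICN and −0.10 in CTdel. Btrc, whose product recognises the marked inhibitor, had 0.40 in ICN, and the scaffold Cul1 −0.31 in CTdel (adjusted p = 0.43 and 0.671). Of 7 other regulators 0 passed in either form. Beside the same shares of all tested genes, 0 in ICN and 1 in CTdel had an unadjusted p under 0.05. That 1 was Nfkbid, a further nuclear IkB gene, with 4.07 and 6.41 in con, 8.66 and 5.74 in ICN, and 16.9 and 7.39 in CTdel. Its log2 change in CTdel was 1.0004 (limma adjusted p = 0.411).

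Of 26 listed NF-kB targets outside the 10 genes 22 were tested, of which 20 had a positive change in ICN and 20 in CTdel, beside 50.1% and 42.1% of all tested genes. Their changes ran from −0.76 to 4.13 in ICN and from −0.74 to 4.00 in CTdel, with medians of 1.26 and 1.23. In CTdel 2 rose, where 1.3% of all tested genes did. Ltb, which encodes the lymphotoxin that triggers the non-canonical branch, had 59.9 and 11.4 in con, where ICN had 157 and 34.5 and CTdel 315 and 187. CTdel was highest without overlap, while ICN overlapped with con. Ltb rose in CTdel by 3.15 (limma adjusted p = 0.0293), a call lost with no term for the table (0.209), without con replicate 2 (0.0632) and without a filter on low genes (0.207).

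Tnip1, which encodes a partner of the NF-kB brake A20, had 32.1 and 24.7 in con, where ICN had 59.9 and 62.3 and CTdel 95.2 and 75.7, with no overlap between the groups. It rose by 1.56 in CTdel and by 1.32 for both forms together (limma adjusted p = 0.0368 and 0.0436). The call in CTdel was lost without either con library (0.0672 and 0.108) or either CTdel library (0.3 and 0.184) and without a filter on low genes (0.139), and that for both forms also with a pseudocount of 5 (0.0556) and quantile normalization (0.0619). Of all tested genes, 0.0362% passed limma's test in ICN and 15.05% had an unadjusted p under 0.05. Of the 22 targets 0 passed it there, with 13 at such an unadjusted p. The smallest p there were those of Icam1, an adhesion molecule (log2 change 2.23), Tnip1 (1.09), Tnfaip3, which encodes A20 (2.32), and Irf1, an interferon regulator (1.56), with adjusted p from 0.144 to 0.172.

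**Figure D5:**
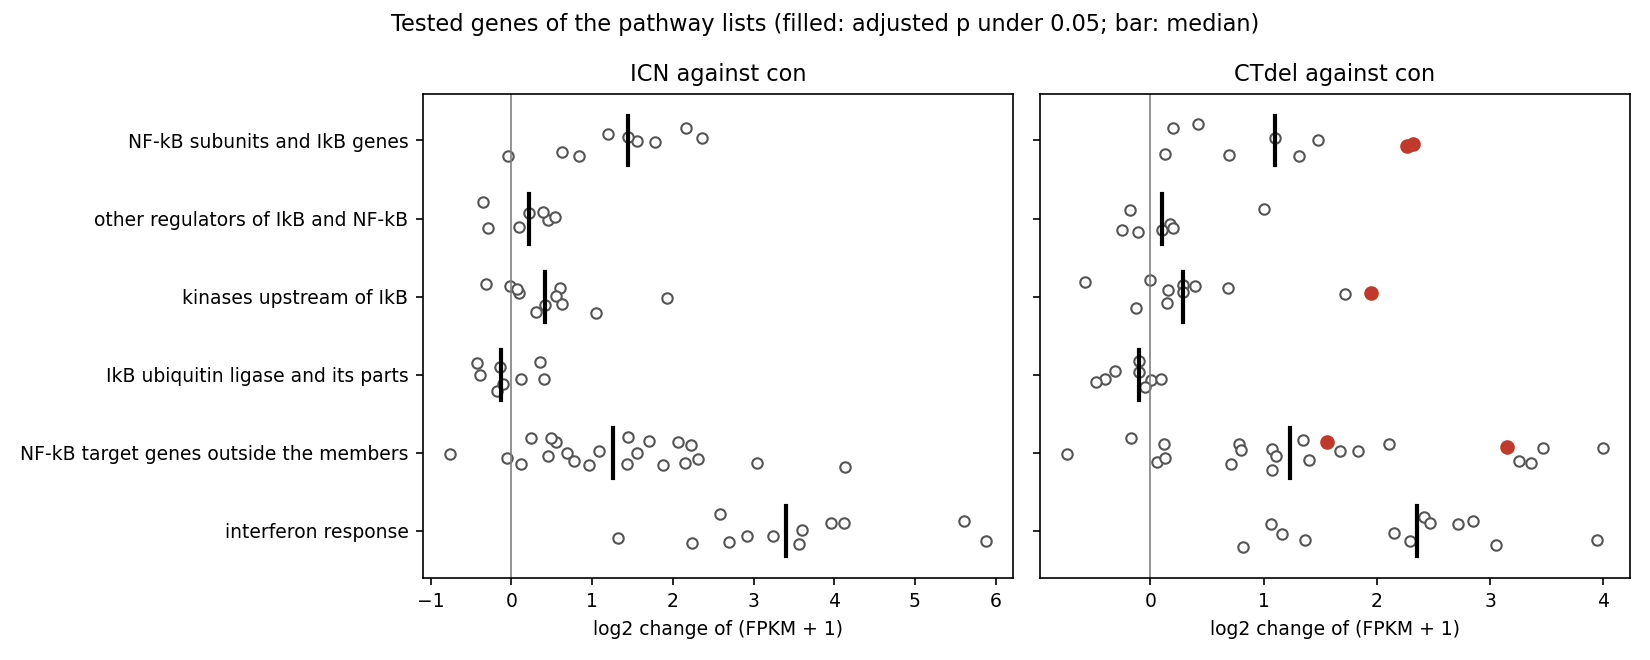
Log2 change of (FPKM + 1) against con (horizontal axis) of each tested gene of the NF-kB set and the other pathway lists, for ICN on the left and CTdel on the right, with a filled red circle for an adjusted p under 0.05 and a bar at the median of the list. Genes of the ubiquitin ligase list lie around 0 (medians −0.13 and −0.10), and the NF-kB targets have medians of 1.26 and 1.23. The interferon-response genes have the highest medians of the lists shown (3.40 and 2.35). The 2 panels have different horizontal scales.

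The genes most like Nfkbia, Nfkbie and Relb over the 6 libraries were taken as those with the smallest root-mean-square difference of log2(FPKM + 1) once each gene's own mean was removed. For Nfkbia they were Slc2a6 (0.27), Havcr2 (0.33), Tnfaip3 (0.36) and Slc7a11 (0.39), and 19 genes outside the set were nearer than its nearest member, Rel (0.60). For Nfkbie they were Tlr2 (0.15), Ptpn22 (0.17), C2 (0.19) and Ifitm5 (0.19), and 157 genes were nearer than Rel (0.53). Tlr2, a receptor for bacterial lipoproteins, had 2.89 and 2.85 in con, 14.2 and 10.2 in ICN and 23.0 and 14.9 in CTdel, the same order of libraries as Nfkbie. For Relb they were LOC664787 (0.13), Slfn5 (0.18), Traf1 (0.19) and Sp140 (0.21), and 49 genes were nearer than Nfkb2 (0.47). Traf1, an adaptor of TNF receptors, had 2.86 and 0.64 in con, 5.96 and 17.0 in ICN and 6.04 and 3.21 in CTdel, highest in ICN replicate 2 like Relb. The nearest members of the set thus differed: Rel for the 2 inhibitors and Nfkb2 for Relb.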

How the data were processed

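mRNA libraries were made from total RNA of BaF3 cells, per the labels' protocols, 2 in each of 3 groups. The deposited values are the authors' FPKM per gene, per the file headers, with the libraries of replicate 1 in one table and those of replicate 2 in another. The submitters' processing notes list the tools HISAT2, Bowtie2 and RSEM, and as builds mm10 and hg19, with no role or version. Symbols that had become dates (24 and 25 in the tables) were restored from Gene IDs. The scale tested was log2(FPKM + 1). A gene was tested if found in both tables and at FPKM 1 or more in 2 or more libraries, which held for 11050. The test was limma's (version 3.58.1, R 4.3.3), with a trend on mean level, 2-sided and with Benjamini-Hochberg adjustment over all 11050. Groups and table were its terms, all 6 libraries entered, 2 residual degrees of freedom remained, and genes with an adjusted p under 0.05 were called. It was tested on simulated data. The genes, lists and tests were chosen with earlier results of these data known. The text names the 10 genes, Notch1, and from each list the called genes or otherwise up to 4 (interferon: 2) with the smallest p. It also names the 4 most similar genes of Nfkbia, Nfkbie and Relb. Alternatives covered the table term, pseudocounts of 0.1 and 5, the filter, scaling, the libraries fitted and each library left out. Those for Ikbke, Ltb, Tnip1, Cxcl10 and Ifit2 were added after seeing the data. Relative depth came from the lowest value above 0 at 25 lengths of small RNA genes. No read counts are known, so no interval for counting error was computed. The promoter sequences are RefSeq's for GRCm38.p6, and coordinates come from the RefSeq gene table of that assembly.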

Additional observations from a re-analysis of the deposited data

How the results depend on the processing

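The number of the 9 genes called in ICN was 0 under 6 alternatives and 2 with only ICN and con fitted. In CTdel it was 1 rather than 2 without the table as a block (no replicate block), 1 with quantile normalization, 0 without a filter on low genes, and 5 with only CTdel and con fitted. For both forms it was 1 with no replicate block and 0 without that filter. With a library left out, it ran from 0 to 7 in ICN, 0 to 5 in CTdel, 0 to 3 between the forms and 0 to 7 for both forms. Leaving out single libraries turned the sign of some changes that had not passed. Their ranges were −0.21 to 0.13 for Nfkb1 in ICN and, in CTdel, −0.0399 to 0.30 for Nfkb1, −0.0725 to 0.48 for Rela and −0.062 to 0.90 for Nfkbib. For both forms Nfkb1 ran from −0.12 to 0.21. Between the forms they were −0.71 to 0.23 for Rel, −1.83 to 0.47 for Relb, −0.72 to 0.51 for Nfkb2, −0.57 to 0.48 for Nfkbia and −0.68 to 0.28 for Nfkbib. The cause was not tested.

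Over all genes, 4 were called in ICN, and 2 with a pseudocount of 5, 0 without a filter (2328 at an unadjusted p under 0.05), 162 with 2 groups fitted and 11 to 1470 with a library left out. In CTdel 156 were called, and 0 without a filter (1592 unadjusted), 730 with 2 groups fitted and 109 to 731 with a library left out. Between the forms 2 were, and 0 with a pseudocount of 0.1 (744 unadjusted) or without a filter (1386 unadjusted), and 2 to 891 with a library left out. For both forms 123 were, and 77 with a pseudocount of 5, 0 without a filter (2098 unadjusted) and 48 to 1240 with a library left out. Without the table the counts were within 1.5 times these. The difference between replicates correlated over genes at −0.099 between con and ICN, 0.326 between con and CTdel and 0.236 between ICN and CTdel, so the numbers share a table and are not shown to pair the libraries. The fold of the subunit and inhibitor sums over con moved by less than its SD when libraries were rescaled to a common sum.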

Other observations

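Some inflammatory genes of the NF-kB target list were far higher in replicate 1 than in replicate 2 of the same group, and were picked after their values were seen. Il1b, which encodes interleukin-1 beta, had FPKM 0.08 in con replicate 1 and was listed at 0 in con replicate 2, and had 9.31 and 0.41 in ICN and 47.8 and 1.7 in CTdel. Ccl3, a chemokine that draws in leukocytes, had 0.95 and 0.57 in con, with 25.03 and 1.05 for ICN and 128 and 5.04 for CTdel. Tnf, the cytokine that starts canonical NF-kB signalling, had 10.3 and 4.36 in con, with 25.2 and 5.04 for ICN and 62.4 and 5.71 for CTdel. In all 3, CTdel replicate 1 was the highest library and ICN replicate 1 the next, as for Nfkbia. Bcl2l1, a survival gene of the same list, had 46.9 and 49.4 in con, and less in each library with a Notch1 plasmid: 35.8 and 21.8 for ICN and 35.3 and 23.0 for CTdel. Its log2 change for both forms together was −0.75 and did not pass limma's test (adjusted p = 0.214).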
